A study of Mus musculus with 6 samples.

Results

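The 10 imprinted genes Igf2, H19, Igf2r, Cdkn1c, Grb10, Peg3, Peg10, Plagl1, Dlk1 and Meg3 were examined for GATA4 and GATA6 occupancy in mouse extraembryonic endoderm (XEN) cells. They were taken by name, as imprinted regulators of fetal and placental growth, from 32106 protein-coding and lncRNA genes of the GENCODE M21 annotation of mm10. The rule used no measured value, but earlier results of these data were known when the genes were chosen. A called region was assigned to a gene when it touched the gene body or lay within 50 kb of one of its annotated transcription start sites (TSS). The 10 windows covered 1.22 Mb in 8 separate blocks, because the windows of Igf2 and H19, and those of Dlk1 and Meg3, overlap. After merging overlapping calls of all libraries, they held 78 distinct regions of 201994 in the genome.

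The data were 6 CUT&RUN libraries, 3 for GATA4 and 3 for GATA6, each labelled as 500000 XEN cells of the line 3F2 with 30000000 reads stated per sample. CUT&RUN releases the DNA around an antibody-bound factor with a tethered nuclease. The 3F lines carry a doxycycline-inducible Oct4, Klf4, Sox2 and mCherry cassette in Col1a1 (TetO-OKSmCh), M2rtTA in R26 and an Oct4-GFP reporter, and the libraries were made from the starting cells. These alleles are shared by both groups. The study's methods name 3F6 beside 3F2 and fewer replicates than the labels list, so it is not known here whether the 3 libraries of a factor came from separate lines or cultures, and p-values measure only the spread between these libraries. The files hold no expression values, so the cell type was not checked against marker genes here, and no control antibody library was analysed here. Positions are those of mm10.

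GATA4 and GATA6 are zinc finger transcription factors that bind GATA sequences and specify the primitive endoderm, the lineage from which XEN cells derive. Imprinted genes are expressed from the maternal or the paternal allele only, under control regions whose DNA methylation is set in the germ line. Many act on growth, with paternally expressed genes often promoting it and maternally expressed genes often restraining it, and many are active in the placenta and the yolk sac.

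Each library had its own list of regions, with the total signal of each region, and each factor had a combined list of the regions common to its 3 libraries. Totals were not scaled for depth, so each is given below as a percentile of total signal within its own list, where 100 is the strongest region of that library. Total signal is summed over a region, so a wide region can rank high, and the percentiles were not adjusted for width. A GATA motif was the letters GATA with A or T before them and A or G after them, on either strand, within 100 bp of the middle of a region.

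There were 3 locations at the 10 genes that lay in both combined lists, and the 300 bases around the strongest signal of each are shown because the results turn on them. The first lies downstream of Peg10 at chr6:4784587-4784886 (mm10, plus strand) and the second between Igf2 and H19 at chr7:142611092-142611391 (plus strand). Capitals mark the GATA motif, with 2 matches in each.
Peg10 downstream: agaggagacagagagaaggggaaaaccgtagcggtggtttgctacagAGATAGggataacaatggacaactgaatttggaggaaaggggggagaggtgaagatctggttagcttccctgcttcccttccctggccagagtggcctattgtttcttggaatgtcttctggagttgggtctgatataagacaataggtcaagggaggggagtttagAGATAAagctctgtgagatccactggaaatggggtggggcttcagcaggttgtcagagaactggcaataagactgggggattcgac
Igf2-H19 interval: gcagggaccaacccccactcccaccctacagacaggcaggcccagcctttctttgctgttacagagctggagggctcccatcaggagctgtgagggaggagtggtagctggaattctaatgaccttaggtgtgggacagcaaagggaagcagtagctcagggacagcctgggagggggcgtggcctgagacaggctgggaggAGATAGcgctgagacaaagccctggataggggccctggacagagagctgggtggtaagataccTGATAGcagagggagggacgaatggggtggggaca
The last lies in an intron of Peg3 at chr7:6728433-6728732 (plus strand) and holds no GATA motif. Capitals mark the core of the YY1 motif, AANATGGC, sought on both strands after the values had been seen. YY1 is a zinc finger factor with known clustered sites in the first intron of Peg3, and its core shares no match with the GATA motif as spelled here. The stretch of the same Peg3 region with the most cores, 3, was chr7:6728222-6728521 (plus strand), which overlaps the first.
Peg3 intron, strongest signal: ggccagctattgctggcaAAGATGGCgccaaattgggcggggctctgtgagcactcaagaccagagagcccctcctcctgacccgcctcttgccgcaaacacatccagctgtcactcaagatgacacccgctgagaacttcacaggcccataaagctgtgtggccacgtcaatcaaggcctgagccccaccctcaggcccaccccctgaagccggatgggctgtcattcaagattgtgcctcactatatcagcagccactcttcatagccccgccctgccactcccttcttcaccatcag
Peg3 intron, most cores: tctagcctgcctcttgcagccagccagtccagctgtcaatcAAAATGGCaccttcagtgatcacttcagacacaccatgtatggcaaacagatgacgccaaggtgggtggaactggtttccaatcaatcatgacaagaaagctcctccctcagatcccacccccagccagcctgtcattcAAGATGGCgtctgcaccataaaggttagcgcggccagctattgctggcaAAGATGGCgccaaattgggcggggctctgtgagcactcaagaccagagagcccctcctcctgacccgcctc
For contrast, and chosen after the values were seen, the 300 bases at the strongest signal of the region within Peg10 itself, chr6:4749131-4749430 (plus strand), had no GATA motif. Their 17 CpG dinucleotides are in capitals. Over the whole combined GATA4 region there, the ratio of CpG observed to that expected from the C and G content was 0.44. The median of the combined GATA4 list was 0.39, so the region was near it.
Peg10 intron: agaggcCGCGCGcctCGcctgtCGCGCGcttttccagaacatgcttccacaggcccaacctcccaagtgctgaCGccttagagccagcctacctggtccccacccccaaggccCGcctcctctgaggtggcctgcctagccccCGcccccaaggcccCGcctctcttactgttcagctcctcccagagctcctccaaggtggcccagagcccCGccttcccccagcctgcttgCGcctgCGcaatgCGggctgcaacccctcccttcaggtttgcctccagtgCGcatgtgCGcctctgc
The region within Igf2r, called in every GATA6 library, held 1 GATA motif, on the minus strand and so read in reverse complement, at chr17:12753085-12753384 (plus strand shown).
Igf2r intron: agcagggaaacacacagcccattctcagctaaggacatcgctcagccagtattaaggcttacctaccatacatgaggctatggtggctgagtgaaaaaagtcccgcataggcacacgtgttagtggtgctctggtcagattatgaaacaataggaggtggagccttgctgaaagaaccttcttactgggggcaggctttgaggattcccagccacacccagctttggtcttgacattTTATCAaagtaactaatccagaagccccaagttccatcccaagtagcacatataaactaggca

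Across the 10 genes, regions were found in every library, at about the density of the whole genome. The GATA4 libraries held 21, 31 and 17 regions in the windows (23.0 ± 7.21, SD, n = 3) and the GATA6 libraries 21, 18 and 16 (18.3 ± 2.52, SD, n = 3). GATA4 replicate 2 was the highest of all 6, and the ranges of the factors overlapped. The mean difference, 4.67 regions, was within the spread between libraries (two-sided exact permutation test over 20 divisions, p = 0.5, where 3 against 3 cannot go below 0.1), and it was 0.667 without GATA4 replicate 2. Relative to the density of the same list over the genome, the windows had 0.919, 1.44 and 0.762 times the number of regions for GATA4 and 0.98, 0.92 and 0.78 times for GATA6. Of the 10 genes, 8, 9 and 8 held a region in the GATA4 libraries and 9, 8 and 8 in the GATA6 libraries. The same was so of 82.2%, 80.4% and 80.1% of all genes in the GATA4 lists and of 80.4%, 79.4% and 80.6% in the GATA6 lists.

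**Figure D1:**
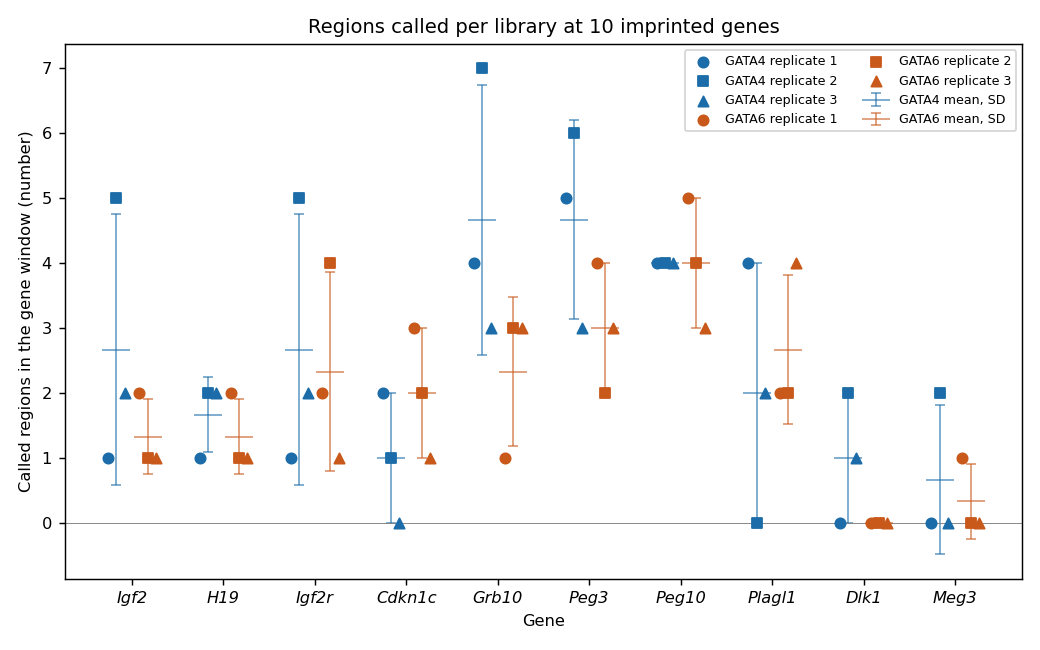
Number of called regions in the window of each gene (vertical axis) for the 10 genes (horizontal axis), with a point per library, bars for the mean of 3 libraries and whiskers for the SD. Peg10 had 3 to 5 regions in every library, while Dlk1 had none in any GATA6 library.

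Most regions at these genes were seen once. Of the 78, 62 (79.5%) were called in 1 library, 4 in 2, 6 in 3, none in 4, 3 in 5 and 3 in all 6, against 83.2% in 1 library and 1.88% in all 6 over the 201994 regions of the genome. GATA4 libraries alone held 36 of them (46.2%, against 44.6% over the genome), GATA6 libraries alone 28 (35.9%, against 42.9%), and both factors 14 (17.9%, against 12.5%). There were 2 regions called in at least 2 GATA4 libraries and absent from the GATA6 lists (2.56%, against 2.6% over the genome), and none the other way round, against 1.7%. The median of the mean percentile was 45.6 for regions of 1 library, 64.2 for those of 3 and 86.0 for those of 6. By the position of the middle, 40 lay in introns, 22 between genes, 12 within 1 kb of a TSS of any gene, 3 in exons and 1 in a UTR. For 38 of the 78 the nearest TSS belonged to another gene than the 10, and 27 had a GATA motif near the middle.

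**Figure D2:**
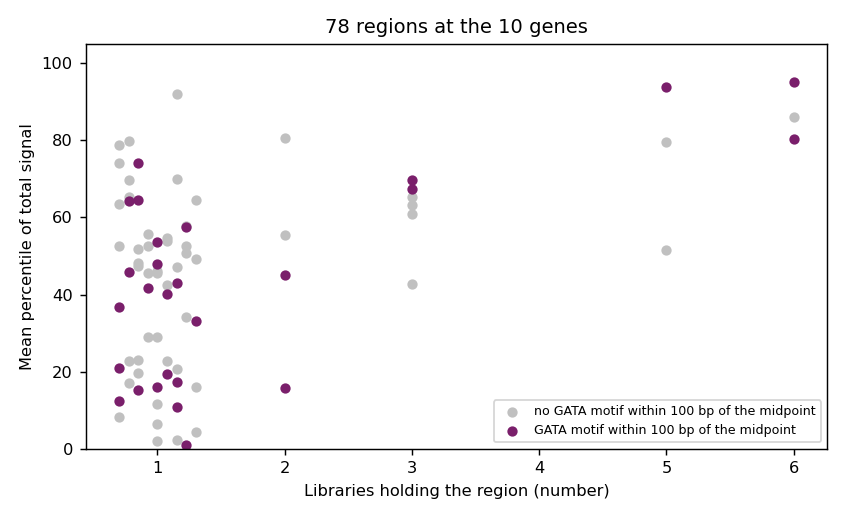
Mean percentile of total signal within the lists that hold a region (vertical axis) against the number of libraries holding it (horizontal axis, points for 1 library spread sideways) for the 78 regions, coloured by whether a GATA motif lies within 100 bp of the middle. The 3 regions of 6 libraries lie at 80.3 and above, and the regions of 1 library run from 0.875 to 92.0.

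In the combined lists, 4 of the 10 genes had a GATA4 region, Igf2, H19, Peg3 and Peg10, and the same 4 with Igf2r had a GATA6 region. Over all 32106 genes, 43.1% had a combined GATA4 region in the window, 33.7% a combined GATA6 region and 29.5% both, so 4, 5 and 4 of 10 are near the background. Igf2 and H19 share a region, and the distinct regions numbered 5 for GATA4 and 4 for GATA6. Looser rules gave more: requiring at least 2 of 3 libraries gave 11 and 9, and without GATA4 replicate 1 there were 8 for GATA4. Promoters were counted by overlap with the 1 kb either side of a TSS. There, 1 of the 10 genes, Peg3, had a combined GATA4 region and none had a combined GATA6 region, against 15.5% and 10.8% of all genes. The Peg3 region touched this stretch by its edge, its middle being 1931 bp from the TSS. With windows of 10 kb either side of the TSS, 2 of the 10 genes had a region for each factor, against 25.1% of all genes for GATA4 and 17.8% for GATA6. With 100 kb, 7 had a GATA4 region and 5 a GATA6 region, against 55.3% and 45.2%.

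**Figure D3:**
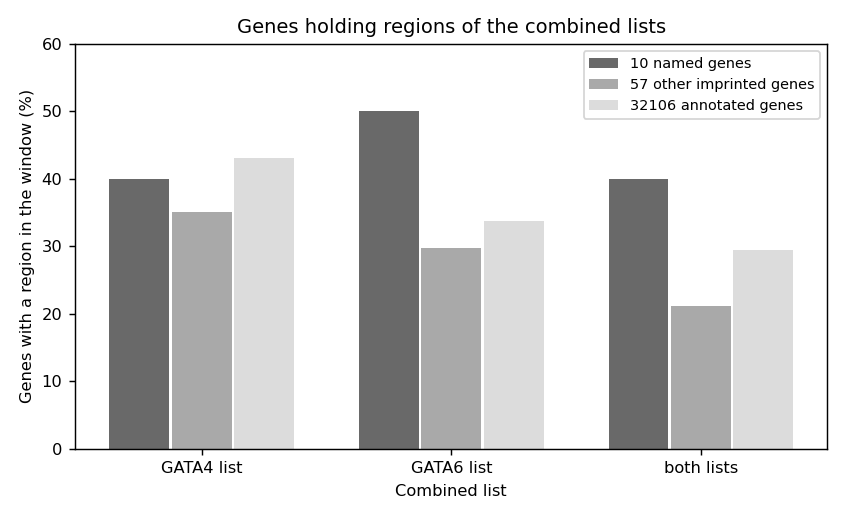
Percent of genes with a region of the combined GATA4 list, the combined GATA6 list or both in the window (vertical axis), for the 10 genes, 57 other imprinted genes and all 32106 genes. The shares of the 10 genes, 40%, 50% and 40%, stand beside 43.1%, 33.7% and 29.5% of all genes, and 1 gene is 10 percentage points of the first group.

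Peg10 and Peg3, which are paternally expressed, carried the regions that ranked highest on average among those of 5 or 6 libraries. Peg10 (ENSMUSG00000092035.8, chr6:4747306-4760517, plus strand) is a gene derived from a retrotransposon and needed for the placenta. Its window held 4, 4 and 4 regions in the GATA4 libraries and 5, 4 and 3 in the GATA6 libraries, 24 in all, as many as or more than at 74.6% of genes. The strongest, chr6:4784106-4785416, lay between genes, 37355 bp downstream of a Peg10 TSS and nearer to that of Gm20714. It was called in all 6 libraries, at percentiles 99.3, 97.4 and 99.0 for GATA4 and 84.3, 92.1 and 99.0 for GATA6, and its middle had a GATA motif. The factors overlapped there (difference in mean percentile 6.77, two-sided exact permutation test, p = 0.3).

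A second Peg10 region, chr6:4732704-4733608, lay 14150 bp upstream in an intron of Sgce, the divergently transcribed imprinted gene for epsilon-sarcoglycan. It was in every GATA4 library, at percentiles 95.4, 95.4 and 98.3, and in GATA6 replicates 1 and 2 at 81.4 and 98.5, but not in replicate 3. The one within Peg10, chr6:4748998-4749667, lay in an intron 1927 bp downstream of a TSS. It reached percentiles 88.6, 88.0 and 73.6 for GATA4 and 79.1 and 68.8 in GATA6 replicates 2 and 3, and was not called in replicate 1. The region in Sgce had a GATA motif near its middle and the one within Peg10 had none. Both were in the combined GATA4 list alone, yet each was called in 2 of 3 GATA6 libraries. The other 7 Peg10 regions were each called in 1 library.

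Peg3 (ENSMUSG00000002265.16, chr7:6703892-6730431, minus strand) encodes a zinc finger protein with roles in growth and maternal behaviour. Its window held 5, 6 and 3 regions for GATA4 and 4, 2 and 3 for GATA6, and 5 of its 9 distinct regions were in at least 2 libraries, the most of any of the 10 genes. The region of all 6 libraries, chr7:6727250-6729726, spanned 2477 bp of an intron, centred 1931 bp downstream of the TSS and 2090 bp upstream of that of Usp29, a ubiquitin protease gene on the opposite strand. The region was wider than the median of the combined GATA4 list, 742 bp. Its maximum signal was 15, 9 and 9 in the GATA4 libraries and 6, 7 and 6 in the GATA6 libraries. In each library's list the median of that value was 4. The percentiles of its total signal were 99.8, 97.6 and 99.0 in the GATA4 libraries and 77.5, 92.7 and 49.5 in the GATA6 libraries. Every GATA4 library thus ranked it above every GATA6 library (98.8 ± 1.11 against 73.2 ± 21.9, SD, n = 3 each, two-sided exact permutation test, p = 0.1, the smallest possible). Such a test was made at the 3 regions of both combined lists, and none of the 3 could pass a threshold of 0.05 by permutation with so few libraries.

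The Peg3 intron had no GATA motif within 100 bp of its middle and 4 in the 2477 bp. It held 12 matches to AANATGGC and 74 CpG dinucleotides. Its ratio of observed to expected CpG was 0.407, near the median of 0.39 over the combined GATA4 list. Of the 8282 regions in the combined GATA4 list, 14.9% had any such core, 23 (0.278%) had at least 3 and 2 had at least 12, the highest count being 13. Among the 148 regions of that list at least 2000 bp wide, 51 had a core and 4 had 3 or more. The GATA6 libraries called a narrower stretch, so that the combined GATA6 region there was chr7:6728279-6728870, 592 bp wide. A match is a description of the letters, and YY1 occupancy was not measured.

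The remaining Peg3 regions ranked lower on average. At the TSS itself, 13 bp upstream, chr7:6730223-6730665 was called in GATA4 replicates 1 and 2 at percentiles 79.0 and 40.9 and in GATA6 replicate 3 at 69.6. An exon of Peg3 held a region of 3 libraries, at 65.1 in GATA4 replicate 1 and at 7.9 and 55.4 in GATA6 replicates 1 and 2. A further region of 3 libraries lay 46 bp upstream of the TSS of Zim1, an imprinted zinc finger gene, at 36.1 in GATA4 replicate 2 and at 82.2 and 77.7 in GATA6 replicates 1 and 3.

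**Figure D4:**
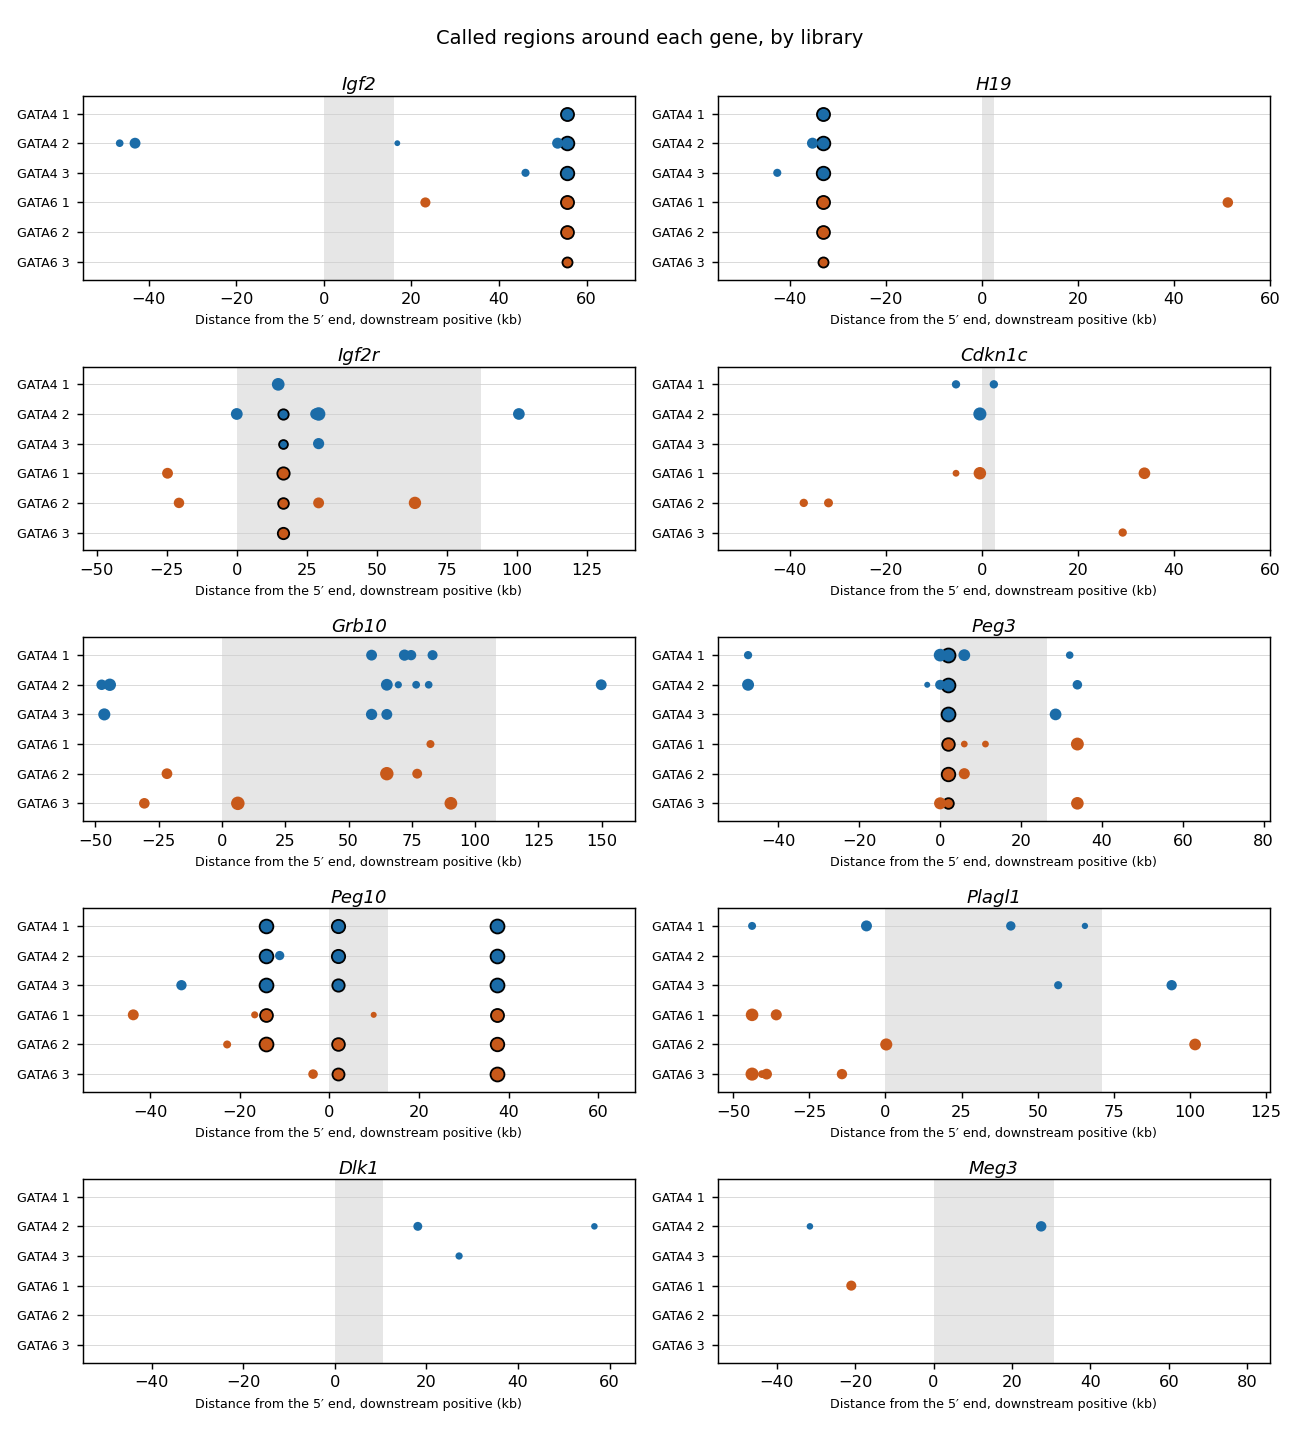
Called regions around each gene as distance from its 5′ end in kb (horizontal axis, downstream positive, grey for the gene body), with a row per library, GATA4 in blue and GATA6 in orange, points larger with a higher percentile and outlined where the region touches a combined list. Columns of points show regions shared between libraries, as 33122 bp upstream of H19 and at Peg10, while Dlk1 and Meg3 have scattered points only.

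Igf2 and H19 are neighbours under shared control. Igf2 (ENSMUSG00000048583.16, chr7:142650766-142666816, minus strand) encodes a paternally expressed fetal growth factor, and H19 (ENSMUSG00000000031.16, chr7:142575529-142578143, minus strand) is a maternally expressed lncRNA. Igf2 had 1, 5 and 2 regions in the GATA4 libraries and 2, 1 and 1 in the GATA6 libraries, and H19 had 1, 2 and 2 and 2, 1 and 1. A single region recurred, and it belonged to both windows. It lay at chr7:142610938-142611591, in an intron of the gene Gm33148, 33122 bp upstream of the nearest H19 TSS and 41765 bp downstream of the nearest Igf2 TSS. Every library held it, at percentiles 84.7, 94.5 and 92.3 for GATA4 and 85.3, 82.3 and 42.5 for GATA6. The factors overlapped (difference in mean percentile 20.5, two-sided exact permutation test, p = 0.2), GATA6 replicate 3 being the lowest, as it was at Peg3. There were 2 GATA motifs near its middle.

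No region of any of the 6 lists touched H19 itself. The nearest lay 32795 bp from its 5′ end on the upstream side and 48299 bp from its 3′ end on the other, so the sequence just upstream of H19, where the imprinting control region is known to lie, had no call. At Igf2 the nearest region was 3014 bp downstream of a TSS, in 1 GATA4 library at percentile 0.875, among the weakest of that list. All 6 Igf2 regions other than the shared one were in 1 library each.

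Igf2r (ENSMUSG00000023830.14, chr17:12682406-12769664, minus strand) encodes the maternally expressed receptor that clears IGF2. It had 1, 5 and 2 regions in the GATA4 libraries and 2, 4 and 1 in the GATA6 libraries. The GATA6 libraries shared chr17:12752805-12753550, in an intron of Igf2r and of the overlapping antisense lncRNA Airn, 16486 bp downstream of the 5′ end of Igf2r and 2378 bp upstream of the TSS of a transcript that starts within the gene. Its percentiles were 73.5, 50.4 and 59.3 for GATA6, while GATA4 replicates 2 and 3 held it at 46.4 and 28.0 and replicate 1 did not. Its maximum signal was 4, 5 and 3 for GATA6 and 5 and 4 in those GATA4 libraries, beside a list median of 4. It was therefore in the combined GATA6 list only, although called in 5 of 6 libraries, and no GATA motif lay near its middle. Near the start of Airn, whose transcription silences paternal Igf2r, a region 888 bp upstream of the TSS was called in GATA4 replicates 2 and 3 at 92.1 and 56.8 and in GATA6 replicate 2 at 53.1. Another, 18 bp downstream of that TSS, was called in GATA4 replicate 2 alone, at 57.8. The promoter of Igf2r, 4 bp from its TSS, had a call in GATA4 replicate 2 alone, at 65.4.

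**Figure D5:**
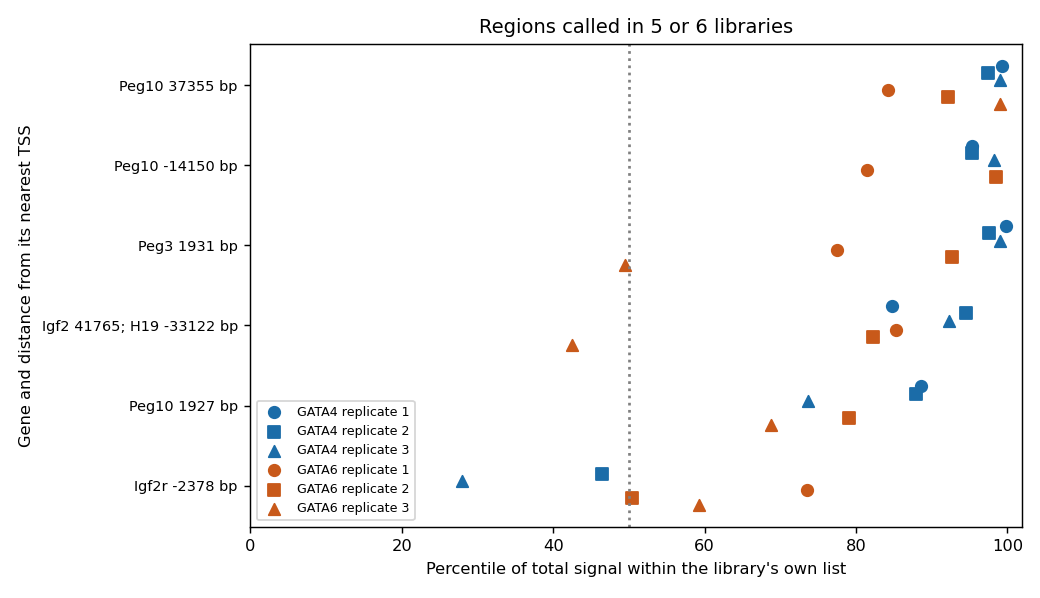
Percentile of total signal within each library's own list (horizontal axis) for the regions called in 5 or 6 libraries (vertical axis, gene and signed distance in bp of the middle from the nearest TSS of that gene), with a point per library and a dotted line at the median of a list. At Peg3 the GATA4 points lie at 97.6 and above and the GATA6 points at 92.7 and below, and at Igf2r the GATA4 points, 28.0 and 46.4, lie left of the GATA6 points.

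The growth inhibitors Cdkn1c and Grb10, and the transcription factor Plagl1, had no combined region. Cdkn1c (ENSMUSG00000037664.13, chr7:143458339-143461050, minus strand), the maternally expressed cell cycle inhibitor p57, had 2, 1 and 0 regions for GATA4 and 3, 2 and 1 for GATA6. Of its 2 regions held by 2 libraries, the one of higher rank lay 405 bp upstream of the TSS, at chr7:143461042-143461868, in GATA4 replicate 2 at percentile 85.5 and in GATA6 replicate 1 at 76.0. Grb10 (ENSMUSG00000020176.17, chr11:11930508-12038683, minus strand), an adaptor that dampens insulin and IGF receptor signalling, had 4, 7 and 3 regions for GATA4 and 1, 3 and 3 for GATA6. Its 18 distinct regions were the most of the 10 genes, in the widest window, 200.1 kb, but 16 were in 1 library. The most shared, chr11:11973258-11973854 in an intron, was held by GATA4 replicates 2 and 3 at 65.5 and 53.3 and by GATA6 replicate 2 at 90.6. Plagl1 (ENSMUSG00000019817.18, chr10:13060504-13131694, plus strand), a paternally expressed zinc finger regulator of other imprinted genes, had 4, 0 and 2 regions for GATA4 and 2, 2 and 4 for GATA6. Of its 12 distinct regions, 1 was shared, 43739 bp upstream and nearest to Sf3b5, a splicing factor gene, in GATA4 replicate 1 at 19.3 and in GATA6 replicates 1 and 3 at 77.6 and 85.7.

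Dlk1 and Meg3 were the poorest in regions. Dlk1 (ENSMUSG00000040856.17, chr12:109452823-109463336, plus strand) encodes a paternally expressed transmembrane protein related to Notch ligands, and Meg3 (ENSMUSG00000021268.17, chr12:109541001-109571726, plus strand) is a maternally expressed lncRNA. Dlk1 had 0, 2 and 1 regions in the GATA4 libraries and 0, 0 and 0 in the GATA6 libraries, and Meg3 had 0, 2 and 0 and 1, 0 and 0. Each summed to 3 over the 6 lists, as many as or more than at 13% of genes, where the median gene had 14. Each region was called in 1 library only, not always the same one, at percentiles from 6.37 to 47.2. The region at 6.37, in GATA4 replicate 2, lay in both windows and was counted for both genes. The nearest to a TSS of Dlk1 lay 11100 bp away and the nearest to one of Meg3 19181 bp away.

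The GATA motif was near the middle of 3 of the 5 combined GATA4 regions at these genes (60%, exact 95% binomial interval 14.7 to 94.7%) and of 2 of the 4 combined GATA6 regions (50%, 6.76 to 93.2%). Over the whole lists it was near the middle of 39.9% of 8282 GATA4 regions and 33.1% of 5170 GATA6 regions, both inside those intervals. The recurrent regions farther than 10 kb from every TSS of the 10 genes, at Igf2-H19, in Sgce and downstream of Peg10, had the motif, and those in introns of Peg3, Peg10 and Igf2r had none at the middle. Over their whole length, those in introns of Peg3, Peg10 and Igf2r held 4, 1 and 1 GATA motifs. Centred on the maximum signal, the share of the combined GATA6 regions with the motif was 75%, so the split depends on the centre used. This split of 6 regions was seen after their values and was not tested.

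Other imprinted genes were taken as a list of 57, all found in the annotation, of which 13 share part of their window with one of the 10. A combined GATA4 region lay in the window of 20 (35.1%), a combined GATA6 region in that of 17 (29.8%) and both in that of 12 (21.1%), with a median of 0 regions for each factor. Over all 32106 genes the shares were 43.1%, 33.7% and 29.5%. Without the shared windows, 14 of 44 (31.8%) had a GATA4 region and 11 (25%) a GATA6 region. By overlap with the 1 kb either side of a TSS, 8 of the 57 (14.0%) had a combined GATA4 region and 4 (7.02%) a combined GATA6 region. The shares of all genes were 15.5% and 10.8%. The GATA4 promoters were those of Nap1l4, Ddc, Usp29, Mcts2, Inpp5f, Peg13, Trappc9 and Gab1, with Usp29 reached by the Peg3 region, and the GATA6 promoters those of Cd81, Tssc4, Zrsr1 and Commd1, the last 2 sharing a region. Ddc, the dopa decarboxylase gene beside Grb10, had 8 combined GATA4 regions and 2 combined GATA6 regions in its window, although Grb10 had none. The intramembrane protease gene H13, chosen after its values were seen, had 7 and 4, and Trappc9 had 6 and 2. Mcts2 lies inside H13 and had 5 and 2, in a window that overlaps that of H13. Over all genes the mean was 0.876 combined GATA4 regions and 0.575 combined GATA6 regions, with a median of 0 for each. These counts were not scaled for window size, and Trappc9 is a long gene (chr15:72589620-73061204).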

How the data were processed

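GATA4 and GATA6 CUT&RUN libraries (3 each) were analysed from the authors' region files. Per the labels and the study's methods, the authors aligned reads to mm10 with Bowtie2 2.3.4.1 and called regions with SEACR 1.3, with a numeric threshold of 0.01 and the words non and stringent given as options. The methods list an IgG control antibody but name no control library for the region calling. Such a threshold keeps a top share of each library's signal blocks, so list lengths follow from it, and how the options were applied was not checked here. The deposited lists give each region's total signal and maximum signal, not scaled for depth, so signal was ranked within a list only, and the depth behind single regions is unknown. The combined lists equalled the merged regions held by all 3 libraries of a factor. Libraries were grouped by title. Genes and TSS came from GENCODE M21 (mm10), windows were the gene body plus 50 kb either side of every TSS, and 1 bp of overlap counted. Feature and distance were taken at the middle of a region, while genes with a combined region within 1 kb of a TSS were counted by overlap. Python 3.11.15, pandas 2.3.3, scipy 1.17.1 and pysam 0.24.0 were used, with code tested on simulated data. The factors were compared by an exact permutation test over libraries, without pairing. The members and lists were chosen with earlier results of these data known. Named were all 10 genes, every combined-list region in their windows, each gene's region held by most libraries (ties by mean percentile), and listed imprinted genes nearest to a named region or with a combined region within 1 kb of a TSS. Further regions, and the AANATGGC core, were chosen after their values were seen. Alternatives changed the window, list length, number of libraries required and motif window, and left out each library.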

Additional observations from a re-analysis of the deposited data

How the results depend on the processing

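Of 79 alternative values for the region counts, gene counts and motif shares, 60 counted as the same, 19 moved and none reversed. The same meant an unchanged direction of the difference, a count within 1.5 times, or a motif share within the binomial interval. Only the difference in regions per library could be marked as reversed, and the binomial intervals were wide. With 10 kb either side of the TSS, combined GATA4 regions were at 2 of the 10 genes (2 regions) and at 13 of the 57 other imprinted genes, and combined GATA6 regions at 2 (2 regions) and at 10. Of all genes, 25.1% had a combined GATA4 region in that window and 17.8% a combined GATA6 region. With 100 kb, GATA4 regions were at 7 genes (8 regions), and with the gene body alone each factor had 2 regions at 2 genes, against 18.9% of all genes for GATA4 and 13.2% for GATA6. Keeping only the 21223 strongest regions of each library left 5 GATA4 regions at 4 genes, unchanged, and 2 GATA6 regions at 2 genes. Lists of equal length (42446) left 5 GATA4 and 4 GATA6 regions at 4 and 5 genes. They held 20, 28 and 17 regions per GATA4 library against 17, 18 and 16 per GATA6 library (two-sided exact permutation test, p = 0.3). The share of all genes was not computed under either list length. Requiring at least 2 of 3 libraries gave 11 GATA4 regions and 9 GATA6 regions at the 10 genes. It put a GATA4 region at 27 other imprinted genes and a GATA6 region also at 27. This rule lengthens the lists over the whole genome, and the share of all genes under it was not computed. Counting the GATA motif anywhere in a region raised its share to 100% of the 5 GATA4 regions and 75% of the 4 GATA6 regions, against 70.8% and 64.5% of the whole lists. Apart from these alternatives' own construction, no cause was tested.

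Leaving out 1 library at a time, the difference between factors in regions per library ran from 0.667 (without GATA4 replicate 2) to 7.67. The number of combined GATA4 regions at the 10 genes ran from 6 to 8, with 8 without GATA4 replicate 1. A combined region then needed only the remaining libraries, so this number could rise but hardly fall. With a replicate block, by flipping the signs of the 3 paired differences, the difference was again 4.67 (exact p = 0.5, where 0.25 is the smallest possible), and it changed no call. Same-numbered libraries did not deviate together over the merged regions (correlations 0.00102, 0.00148 and 0.00118), so the numbers were not taken as pairs. With 3 libraries a factor, the exact permutation test cannot pass 0.05. Signal in regions was deposited without depth, so a region missing from a list cannot be told apart from one under that library's threshold.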
